A study of Mus musculus with 18 samples.

Results

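The genes described here are 41 type I interferon-stimulated genes, followed in mouse regulatory T cells (Tregs) across 3 genotypes and 2 cell states. They were taken from a list of mouse genes known to be induced by type I interferon, and a gene counted as measured when it had at least 10 counts in at least 3 libraries. All 41 listed genes met that rule, out of 23420 genes in the count table and 10630 genes tested. The lowest were Rsad2 and Ifitm3, which reached 10 counts in 14 of the 18 libraries, and no listed gene fell outside the rule.

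The data are bulk RNA-seq libraries of sorted murine Tregs, from a series about the CBM signalosome, an adaptor complex that links antigen receptors to NF-kB. The genotypes are labelled FCre x C1fl/fl, FCre x C1fl/+ and FCre x C1+/+, called fl/fl, fl/+ and +/+ here, so all 3 carry FCre. Each genotype was sampled in the Effector and the Resting state, with batch numbers 1 to 3, which makes 6 groups of 3 libraries and 18 libraries in all. The labels used here do not say what FCre and C1 stand for, and they give no Cre driver, sorting gate, sex, age or strain. The labels do not say that libraries of a group came from separate animals, so every p-value measures only the spread between these libraries.

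Type I interferons bind a receptor made of Ifnar1 and Ifnar2, whose kinases Jak1 and Tyk2 phosphorylate STAT proteins, Stat2 among them. Stat2 and Irf9 are parts of the ISGF3 complex, which binds the interferon-stimulated response element in front of its target genes. The targets sense viral RNA and DNA, degrade or mask foreign RNA, attach the ubiquitin-like protein ISG15 to other proteins, block entry and budding of viruses, and feed back on the pathway. T cells hold a low constant level of many of these genes, and tonic interferon signalling is one of its known sources.

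The core of the response element was searched in the promoters as GAAA, any 2 bases and GAAA again, or the same with TTTC for a match on the other strand, and matches may overlap. RefSeq promoters of build GRCm38.p6, running from 250 bases before to 50 bases after the start site, matched 32 of the 41 genes by symbol. The motif was present in 14 of these 32, against 3.44% of all 32851 promoters and 3.99% of genes in that table. Oas1a, Ifit1, Bst2 and Isg15 are shown because each has at least 2 matches and together they cover the outcomes seen between states, each as 120 bases with the motif letters in capitals.
Oas1a: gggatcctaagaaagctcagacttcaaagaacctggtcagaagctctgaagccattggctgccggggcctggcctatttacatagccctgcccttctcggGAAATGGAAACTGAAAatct
Ifit1: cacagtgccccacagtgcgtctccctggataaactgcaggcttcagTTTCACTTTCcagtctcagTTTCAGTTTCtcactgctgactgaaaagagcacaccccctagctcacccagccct
Bst2: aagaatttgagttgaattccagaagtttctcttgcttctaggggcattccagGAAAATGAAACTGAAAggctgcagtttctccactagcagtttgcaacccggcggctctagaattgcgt
Isg15: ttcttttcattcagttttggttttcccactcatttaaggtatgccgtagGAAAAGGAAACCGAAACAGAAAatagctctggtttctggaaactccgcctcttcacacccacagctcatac
The Oas1a stretch lies at chr5:120907526-120907645 on the minus strand, that of Ifit1 at chr19:34640739-34640858 on the plus strand, that of Bst2 at chr8:71537535-71537654 on the minus strand and that of Isg15 at chr4:156200826-156200945 on the minus strand. In Oas1a the run lies just before the start site and holds GAAATGGAAA and GAAACTGAAA, which overlap. Isg15 has the same kind of run with 3 overlapping matches, and Ifit1 has 2 separate ones on the opposite strand. Between the states, Ifit1 and Bst2 fell, Oas1a rose and Isg15 did not pass, with values given below.

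Per length of transcript, the 41 genes covered a wide range of levels. Mean FPKM over the 18 libraries, from the deposited table, was 1719 for Ifi27l2a, 191 for the nuclear-body protein Sp100, 146 for galectin-9 (Lgals9), 111 for tetherin (Bst2) and 80.3 for the nucleic acid sensor Zbp1. The ranges of Lgals9 (109 to 188 FPKM) and Bst2 (73.3 to 152 FPKM) overlapped, as did those of Lgals9 and Sp100. Ifi27l2a, at 1068 to 2576 FPKM, overlapped no other listed gene. At the other end were Rsad2 at 1.96 FPKM and Ifi44 at 1.87 FPKM. All other levels below are CPM, counts scaled to the library total and not divided by length, and are given in the order of replicates 1, 2 and 3.

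Library totals ran from 1658073 to 5756903 expected counts. 7 Treg and T cell markers (Foxp3, Il2ra, Ikzf2, Ctla4, Cd4, Cd3e and Tnfrsf18) summed to 2196 to 3638 CPM in effector libraries and 2130 to 2661 CPM in resting ones. 6 effector Treg markers summed to 220.1 to 1072 CPM in effector libraries and 80.59 to 177.4 CPM in resting ones. The lowest effector sums were in fl/fl replicates 2 and 3, at 220.1 and 285.3 CPM, while the other effector libraries had 555.4 CPM or more. 5 resting Treg markers summed to 2743 and 2807 CPM in fl/fl effector replicates 2 and 3. They summed to 1094 to 2013 CPM in the other effector libraries and 3101 to 3508 CPM in resting ones.

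Before the groups are compared, some libraries stood apart for these genes. Both fl/fl libraries numbered 3 were low: the effector one was the lowest of its 3 for 34 of 41 genes and the resting one for 38 of 41. In both states at once, fl/fl replicate 3 was lowest for 33 of 41 genes, against 14.4% of all tested genes. The fl/+ libraries numbered 1 were lowest in both states for 20 of 41 genes, against 12.9% of all tested genes. Fl/+ replicate 2 was highest in both states for 17 of 41, where all tested genes gave 13.2%. The fl/fl effector library numbered 3 also had the smallest total of all, at 1658073 expected counts, whereas its resting partner had 3613383. Whether depth took part in this was not tested.

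**Figure D1:**
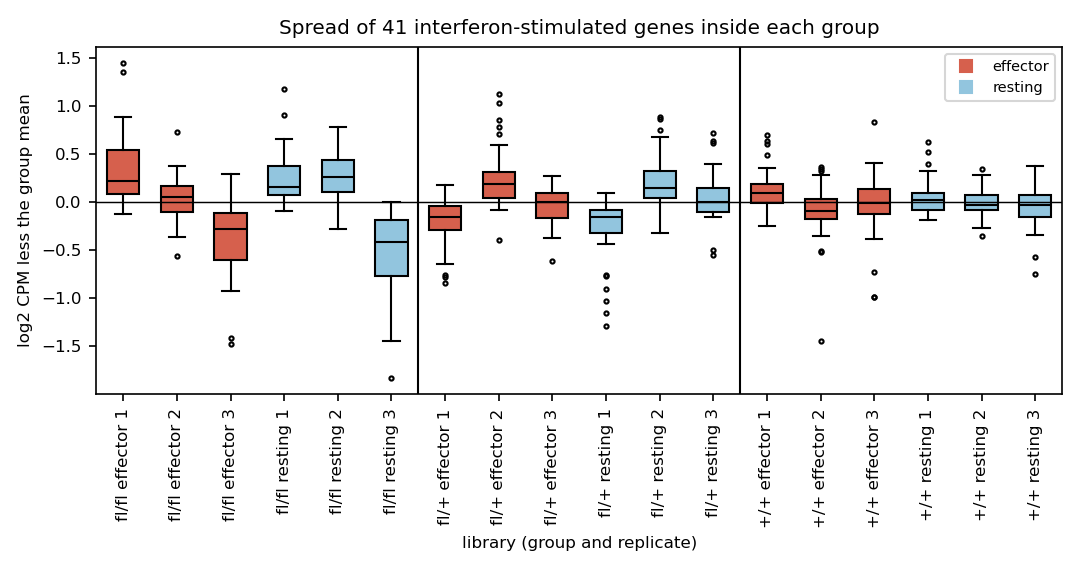
Each box shows the 41 interferon-stimulated genes of a library as log2 CPM less the mean of its group of 3, with effector groups left of resting groups for each genotype. The boxes of fl/fl replicate 3 lie lowest, with medians of -0.28 in the effector and -0.42 in the resting library.

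The plot of deviations from the group mean shows that the low libraries were low across most of the genes at once. The median deviation was -0.28 in fl/fl effector replicate 3 and -0.42 in fl/fl resting replicate 3, and -0.155 in effector and -0.150 in resting fl/+ replicate 1. The median SD within groups was 0.305 log2 units for the 41 genes and 0.239 for all tested genes. It was widest in fl/fl resting cells, at 0.400 against 0.209 for all genes, and narrowest in +/+ resting cells, at 0.143 against 0.208.

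Between the states, more interferon-stimulated genes were lower than higher in effector Tregs. Over the mean of the 3 genotypes, 20 of the 41 genes fell and 1, Oas1a, rose at an adjusted p under 0.05, and 20 did not pass. The background was 15.4% of all tested genes lower and 17.5% higher. The median log2 difference, effector less resting, was -0.27 for the 41 genes and -0.01 for all tested genes. The single gene differences ran from -1.79 for Oas2 to 0.57 for Oas1a. In a bulk sample, fewer cells that express a gene and less RNA per cell cannot be told apart.

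Effector and resting libraries that share a genotype and a batch number form 9 pairs, and most of the 41 genes were lower in the effector library of each. Effector libraries were lower for 29, 40 and 28 of 41 genes in the fl/fl pairs, for 30, 35 and 35 in the fl/+ pairs, and for 29, 34 and 30 in the +/+ pairs. Over all tested genes the share that was lower ran from 49 to 51% in these pairs. In all 9 pairs, 17 genes were lower in the effector library, where 8.25% of all tested genes were; no listed gene was higher in all 9, where 9.52% of all genes were. With genotype and batch number as a block, the fit called 28 genes lower and 2 higher (Oas1a and Ifi27l2a), with a background of 17.8% lower and 19.2% higher.

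**Figure D2:**
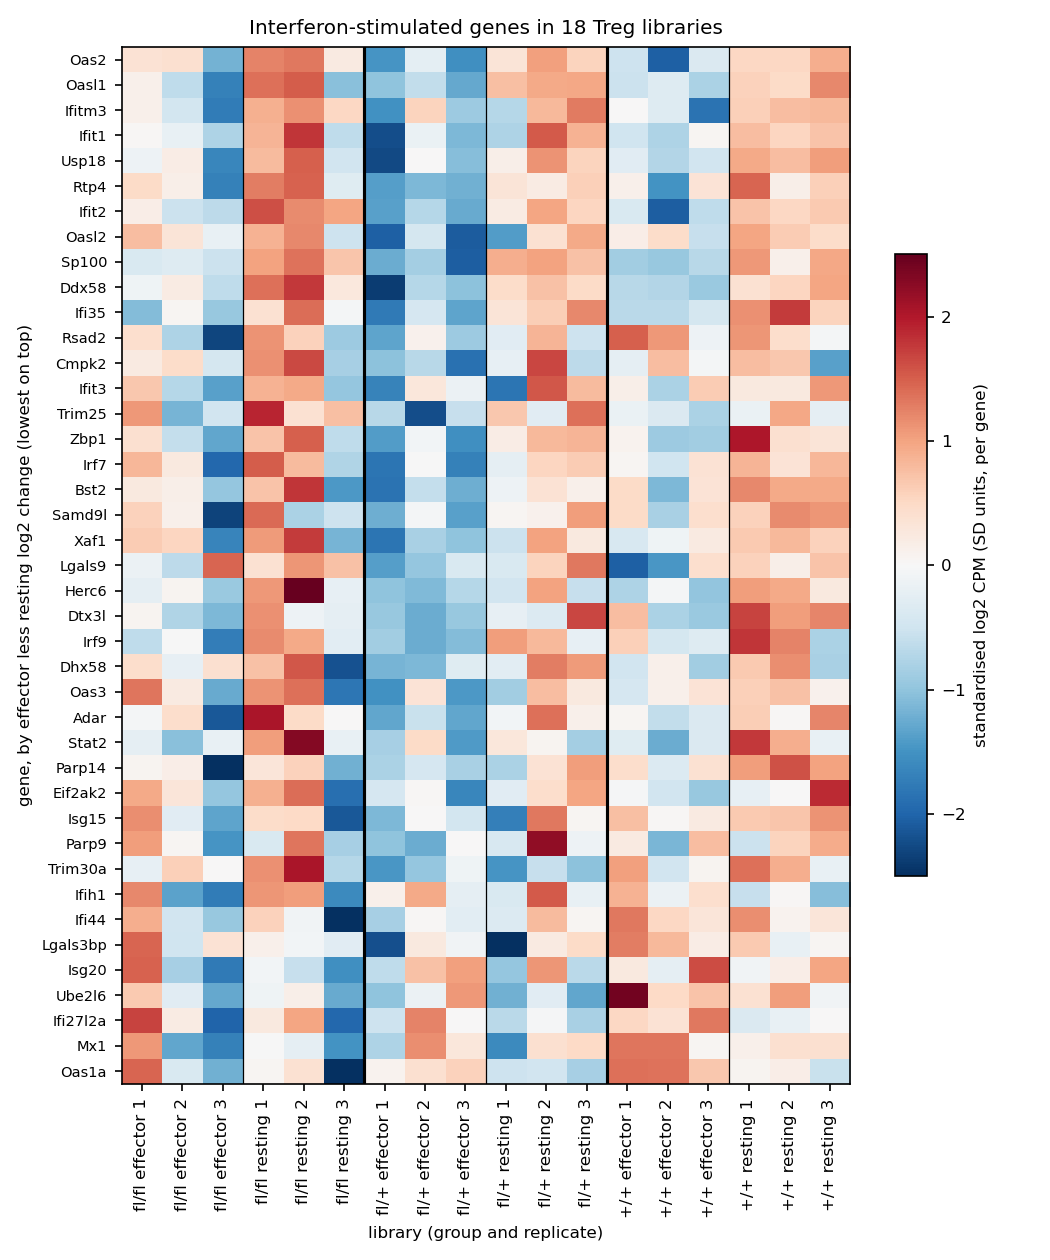
Rows are the 41 interferon-stimulated genes, columns the 18 libraries (effector left of resting in each genotype), and colour is log2 CPM standardised per gene in SD units. Genes with the lowest effector less resting difference are on top, from Oas2 at -1.79, and Oas1a at 0.57 is at the bottom. Blue columns that cut across most rows are single libraries such as fl/fl replicate 3.

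The heatmap shows both patterns at once: a difference between states in the upper rows and whole libraries that shift together. The genes are described below by role.

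Among the genes of signalling and transcription, all 3 were called lower in effector cells over the mean of genotypes. Stat2 had 77.1, 69.8 and 77.4 CPM in the fl/fl effector libraries, 71.7, 83.9 and 66.8 CPM in fl/+ and 76.3, 68.2 and 75.8 CPM in +/+. Its resting libraries held 89.8, 104 and 77.3 CPM in fl/fl, 81.8, 79.9 and 71.4 CPM in fl/+ and 97.9, 88.3 and 77.4 CPM in +/+. Stat2, the STAT specific to type I and type III interferon signalling, had a log2 difference of -0.20 (SE 0.07, adjusted p = 0.0378), and its groups overlapped in fl/fl and fl/+ but not in +/+. In effector cells Irf9 was at 151, 164 and 131 CPM in fl/fl, 147, 140.1 and 143 CPM in fl/+ and 178, 155 and 158 CPM in +/+. In resting cells it was at 192, 186 and 159 CPM in fl/fl, 189, 183 and 160.1 CPM in fl/+ and 208, 194 and 148 CPM in +/+. Irf9, the DNA-binding part of ISGF3, had a log2 difference of -0.24 (SE 0.07, adjusted p = 0.00963), and it was lower in 8 of 9 pairs, all but +/+ replicate 3, with overlap in fl/fl and +/+. Irf7 measured 124, 106 and 59.2 CPM in the fl/fl effector libraries, 61.4, 99.2 and 63.6 CPM in the fl/+ ones and 101, 87.2 and 109 CPM in the +/+ ones. The resting counterparts stood at 148, 123 and 81.8 CPM in fl/fl, 93.7, 115 and 117 CPM in fl/+ and 125, 109 and 124 CPM in +/+. Irf7, which drives interferon-alpha transcription, had a log2 difference of -0.35 (SE 0.13, adjusted p = 0.0465). It was lower in all 9 pairs, while its groups overlapped within every genotype.

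Of 6 nucleic acid sensors and RNA-binding enzymes, 3 fell and 3 did not pass. The effector level of Ddx58 was 120.4, 128 and 108 CPM in fl/fl, 74.6, 106 and 98.9 CPM in fl/+ and 106, 105 and 101 CPM in +/+. Its resting level was 165, 178 and 129.9 CPM in fl/fl, 135, 143 and 136 CPM in fl/+ and 133, 138 and 152 CPM in +/+. Ddx58 encodes RIG-I, a sensor of viral RNA ends, and lies at chr4:40203773-40239828 on GRCm38. Every effector library was below every resting library, with a log2 difference of -0.47 (SE 0.07, adjusted p = 4.58e-05). Effector libraries held 100.4, 82.9 and 72.5 CPM of Zbp1 in fl/fl, 71.2, 91.7 and 69.2 CPM in fl/+ and 94.6, 78.2 and 78.7 CPM in +/+. Resting libraries held 107, 124 and 82.4 CPM in fl/fl, 96.5, 109 and 109 CPM in fl/+ and 137, 100.5 and 99.1 CPM in +/+. Zbp1 senses Z-form nucleic acids, with a log2 difference of -0.38 (SE 0.10, adjusted p = 0.00422). The groups overlapped in fl/fl only. Adar had 145, 153 and 114 CPM in the fl/fl effector libraries, 125, 137 and 126 CPM in fl/+ and 147, 136 and 139.7 CPM in +/+. Its resting libraries held 184, 154 and 146 CPM in fl/fl, 145, 171 and 148 CPM in fl/+ and 157, 146 and 168 CPM in +/+. Adar, the RNA adenosine deaminase ADAR1, had the smallest called difference of this group, -0.21 (SE 0.07, adjusted p = 0.0172), with overlap in fl/fl and +/+. The RNA sensor Ifih1 (MDA5) spanned 35.7 to 70 CPM with a difference of 0.03 (SE 0.13), Dhx58 (LGP2) 22.1 to 48.3 CPM with -0.24 (SE 0.12), and the RNA-activated kinase Eif2ak2 (PKR) 48.7 to 83.7 CPM with -0.14 (SE 0.09); none of these passed.

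The genes of the OAS family encode oligoadenylate synthetases, which activate RNase L, and relatives without that activity. They were the family with members on both sides: 2 fell, 1 rose and 2 did not pass. In effector cells Oas2 was at 30.3, 31.5 and 6.65 CPM in fl/fl, 4.97, 16.8 and 4.6 CPM in fl/+ and 12.9, 2.64 and 15.2 CPM in +/+. In resting cells it was at 70.7, 76.1 and 26.6 CPM in fl/fl, 29.3, 57.8 and 37.1 CPM in fl/+ and 35.5, 35.3 and 51.3 CPM in +/+. Oas2 had the largest difference of the 41 genes, -1.79 (SE 0.30, adjusted p = 7.63e-05), and lies at chr5:120730333-120749853. In fl/+ and +/+ every effector library was below every resting one, whereas in fl/fl the low resting replicate 3 lay inside the effector range. Oasl1 measured 11.9, 7.38 and 3.63 CPM in the fl/fl effector libraries, 5.79, 7.51 and 4.84 CPM in the fl/+ ones and 7.82, 8.99 and 6.65 CPM in the +/+ ones. The resting counterparts stood at 25.9, 28.5 and 5.61 CPM in fl/fl, 17.7, 20.1 and 20.2 CPM in fl/+ and 16, 15 and 23.3 CPM in +/+. Oasl1, which in mouse represses Irf7 translation, lies at chr5:114923240-114937915 and differed by -1.37 (SE 0.25, adjusted p = 0.000199). As for Oas2, the groups were apart in fl/+ and +/+ and overlapped in fl/fl. The effector level of Oas1a was 95.4, 45.6 and 32.6 CPM in fl/fl, 55, 62.4 and 67 CPM in fl/+ and 92.1, 91.4 and 69.5 CPM in +/+. Its resting level was 54, 62.1 and 18.3 CPM in fl/fl, 43.3, 43.7 and 38 CPM in fl/+ and 54.8, 56.7 and 42.6 CPM in +/+. Oas1a, at chr5:120896256-120907521, went the other way, with a log2 difference of 0.57 (SE 0.19, adjusted p = 0.0251). It was higher in the effector library of 8 of 9 pairs, all but fl/fl replicate 2, and the groups were apart in fl/+ and +/+. Oas3 spanned 31.6 to 85.9 CPM with a difference of -0.22 (SE 0.18), and Oasl2 spanned 6.77 to 32.1 CPM with -0.54 (SE 0.21, adjusted p = 0.0516), just outside the threshold. With the pair as a block both were called lower, Oas3 at -0.23 (SE 0.09) and Oasl2 at -0.55 (SE 0.15). Without fl/fl effector replicate 1 the Oas1a call was lost, and DESeq2 did not call it either.

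**Figure D3:**
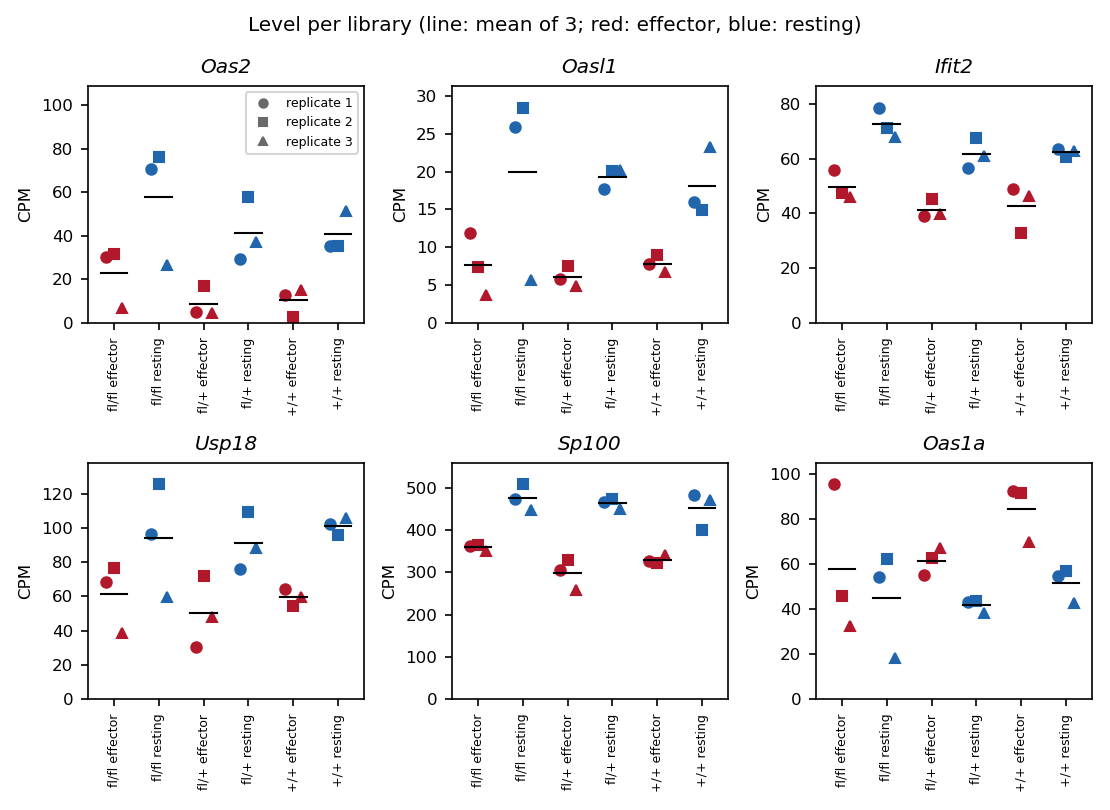
Each panel shows a gene's CPM in all 18 libraries on a linear axis from 0, effector groups (red) left of resting groups (blue) for each genotype, with a line at the mean of 3 and the marker shape giving the replicate number. The 9 effector and 9 resting libraries do not overlap for Ifit2 and Sp100, and Oas1a is the gene called higher.

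The plot of levels per library shows the separation between states for 6 genes. For Ifit2 and Sp100, as for Ddx58, all 9 effector libraries were below all 9 resting ones. Genes separated in this way are among those lower in all 9 pairs, which were 8.25% of all tested genes. The share separated was not counted over all tested genes. For Oas2 and Oasl1 the gap was wide in fl/+ and +/+, and fl/fl replicate 3 was the lowest of its group in both states.

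The proteins of the IFIT family bind foreign RNA and block its translation, and their genes lie together on chromosome 19. Of the 3, Ifit1 and Ifit2 fell and Ifit3 did not pass. Effector libraries held 87.7, 80.5 and 63.5 CPM of Ifit1 in fl/fl, 34.9, 81 and 54.9 CPM in fl/+ and 71, 63.4 and 88.7 CPM in +/+. Resting libraries held 122, 179 and 66.7 CPM in fl/fl, 63.3, 162 and 124 CPM in fl/+ and 118, 108 and 116 CPM in +/+. Ifit1, at chr19:34640871-34650009, had a log2 difference of -0.76 (SE 0.19, adjusted p = 0.00355) and was lower in all 9 pairs, while its groups overlapped in fl/fl and fl/+. Ifit2 had 55.7, 47.3 and 45.9 CPM in the fl/fl effector libraries, 38.9, 45.3 and 39.7 CPM in fl/+ and 49, 32.8 and 46.2 CPM in +/+. Its resting libraries held 78.7, 71.1 and 67.9 CPM in fl/fl, 56.4, 67.7 and 61 CPM in fl/+ and 63.7, 60.8 and 62.8 CPM in +/+. Ifit2, at chr19:34550694-34576419, had a log2 difference of -0.55 (SE 0.08, adjusted p = 1.97e-05) with no overlap between the 9 effector and the 9 resting libraries. Ifit3 spanned 28.9 to 133 CPM with a difference of -0.43 (SE 0.25); it was lower in 8 of 9 pairs and was called lower in the fit with the pair as a block, at -0.42 (SE 0.10).

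In the ISG15 group, Isg15 itself did not pass, while 3 of its 4 enzyme genes fell. In effector cells Usp18 was at 68.4, 76.8 and 38.7 CPM in fl/fl, 30.6, 71.7 and 47.9 CPM in fl/+ and 64.2, 54.4 and 59.9 CPM in +/+. In resting cells it was at 96.6, 126 and 59.9 CPM in fl/fl, 75.8, 109 and 88.3 CPM in fl/+ and 102, 95.6 and 106 CPM in +/+. Usp18, which removes ISG15 and damps the interferon receptor, lies at chr6:121245906-121270917 and had a log2 difference of -0.74 (SE 0.16, adjusted p = 0.000973). Its groups were apart in fl/+ and +/+. Herc6 measured 54.7, 57 and 49.6 CPM in the fl/fl effector libraries, 49, 48.4 and 51 CPM in the fl/+ ones and 50.7, 56 and 49.2 CPM in the +/+ ones. The resting counterparts stood at 65.6, 81.2 and 54.9 CPM in fl/fl, 52.8, 64.9 and 52.1 CPM in fl/+ and 65.2, 64.4 and 58.4 CPM in +/+. Herc6, the main ISG15 ligase of the mouse, had a log2 difference of -0.26 (SE 0.08, adjusted p = 0.0134), and its groups overlapped in fl/fl only. The effector level of Trim25 was 75.3, 41.9 and 50.2 CPM in fl/fl, 47.5, 31.8 and 48.9 CPM in fl/+ and 54.5, 51.8 and 46.2 CPM in +/+. Its resting level was 93, 62.8 and 69.1 CPM in fl/fl, 67.6, 52.7 and 81.2 CPM in fl/+ and 54.5, 72.9 and 53.7 CPM in +/+. Trim25, a ubiquitin ligase that acts on RIG-I, had a log2 difference of -0.43 (SE 0.13, adjusted p = 0.012) and overlapped between states in fl/fl and +/+. Isg15 spanned 9.15 to 29.5 CPM with a difference of -0.10 (SE 0.20) and was lower in 5 of 9 pairs. Ube2l6, the conjugating enzyme for ISG15, spanned 31.9 to 61.3 CPM with 0.18 (SE 0.10), on the higher side.

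Of 8 antiviral effectors, Bst2 and Ifitm3 fell and 6 did not pass. Effector libraries held 76.7, 75.1 and 58 CPM of Bst2 in fl/fl, 47.3, 63.2 and 54.7 CPM in fl/+ and 80.9, 56 and 78.4 CPM in +/+. Resting libraries held 85.3, 109.7 and 52 CPM in fl/fl, 70.4, 78.7 and 74.7 CPM in fl/+ and 95.6, 90.4 and 90 CPM in +/+. Bst2, which tethers budding virus to the cell surface, had a log2 difference of -0.33 (SE 0.11, adjusted p = 0.029), and was lower in all pairs but fl/fl replicate 3, with overlap in fl/fl only. Ifitm3 had 5.01, 3.35 and 1.21 CPM in the fl/fl effector libraries, 1.49, 6.73 and 2.42 CPM in fl/+ and 4.65, 3.7 and 1.11 CPM in +/+. Its resting libraries held 8.35, 9.74 and 6.49 CPM in fl/fl, 2.8, 7.87 and 10.8 CPM in fl/+ and 6.85, 7.7 and 7.9 CPM in +/+. Ifitm3, which blocks fusion of entering virus, had a log2 difference of -1.11 (SE 0.33, adjusted p = 0.012) and was lower in all 9 pairs, at levels of a few CPM and with overlap in fl/+ only. The GTPase Mx1 spanned 3.63 to 24.3 CPM with a difference of 0.49 (SE 0.33), and Rsad2 (viperin) spanned 0.605 to 18 CPM with -0.45 (SE 0.38). Their wide ranges came with within-group SDs of 0.831 and 0.961 log2 units. Cmpk2 (difference -0.44, SE 0.20, adjusted p = 0.109), Isg20 (0.15, SE 0.13, adjusted p = 0.415), Samd9l (-0.29, SE 0.12, adjusted p = 0.0718) and Trim30a (-0.06, SE 0.07, adjusted p = 0.559) did not pass. With the pair as a block, Rsad2 at -0.56 (SE 0.20), Cmpk2 at -0.41 (SE 0.14) and Samd9l at -0.30 (SE 0.08) were called lower.

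In the group of PARP genes and their partner, Dtx3l fell, and Parp9 and Parp14 did not pass. In effector cells Dtx3l was at 181, 162 and 155 CPM in fl/fl, 159, 153 and 158 CPM in fl/+ and 199, 162 and 159 CPM in +/+. In resting cells it was at 209, 177 and 174 CPM in fl/fl, 175, 172 and 224 CPM in fl/+ and 225, 206 and 211 CPM in +/+. Dtx3l, a ubiquitin ligase that works as a pair with Parp9, had a log2 difference of -0.25 (SE 0.07, adjusted p = 0.00646), was lower in all 9 pairs and overlapped in fl/fl only. Parp9 spanned 91.9 to 137 CPM with a difference of -0.09 (SE 0.08) and Parp14 111 to 187 CPM with -0.15 (SE 0.07). Parp14 was called lower with the pair as a block, at -0.15 (SE 0.05). Dtx3l at chr16:35926511-35939151 and Parp9 at chr16:35938470-35972605 overlap on opposite strands, and without a stated strand setting reads from the shared stretch cannot be told apart.

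Of the 8 other induced genes, Sp100, Ifi35, Rtp4 and Lgals9 fell. Sp100 measured 362, 366 and 349 CPM in the fl/fl effector libraries, 305, 329.6 and 259 CPM in the fl/+ ones and 328, 323 and 340.0 CPM in the +/+ ones. The resting counterparts stood at 474, 509 and 446 CPM in fl/fl, 466, 474 and 449 CPM in fl/+ and 483, 399 and 471 CPM in +/+. Sp100, a component of nuclear bodies at chr1:85649988-85709998, had the smallest adjusted p of the 41 genes, with a log2 difference of -0.50 (SE 0.05, adjusted p = 6.56e-07) and no overlap between the states. The effector level of Ifi35 was 70.7, 88.2 and 72.5 CPM in fl/fl, 61.7, 80.5 and 67.5 CPM in fl/+ and 76.7, 76.6 and 80.2 CPM in +/+. Its resting level was 94.5, 115 and 86.8 CPM in fl/fl, 93.3, 98.8 and 111 CPM in fl/+ and 109.6, 124 and 97.5 CPM in +/+. Ifi35, at chr11:101448407-101458698, had a log2 difference of -0.46 (SE 0.08, adjusted p = 8.75e-05), with an overlap in fl/fl only. Effector libraries held 82.5, 74.5 and 41.7 CPM of Rtp4 in fl/fl, 46.2, 50 and 48.6 CPM in fl/+ and 73.9, 44.4 and 79.1 CPM in +/+. Resting libraries held 106, 113 and 64.6 CPM in fl/fl, 78.8, 76 and 85.9 CPM in fl/+ and 113, 74.6 and 86.1 CPM in +/+. Rtp4, which in other tissues helps receptors reach the cell surface, had a log2 difference of -0.55 (SE 0.13, adjusted p = 0.00295) and was lower in all 9 pairs, with overlap in fl/fl and +/+. Lgals9 had 198, 182 and 259 CPM in the fl/fl effector libraries, 162, 173 and 191 CPM in fl/+ and 145, 159.6 and 218 CPM in +/+. Its resting libraries held 216, 244 and 229 CPM in fl/fl, 191, 223 and 253 CPM in fl/+ and 223, 208 and 229 CPM in +/+. Lgals9, the secreted lectin galectin-9, had a log2 difference of -0.27 (SE 0.08, adjusted p = 0.0176) with overlap in all 3 genotypes. In effector cells Ifi27l2a was at 869.9, 641 and 409 CPM in fl/fl, 555, 795 and 616 CPM in fl/+ and 685, 664 and 806 CPM in +/+. In resting cells it was at 647, 752 and 411 CPM in fl/fl, 537, 612 and 521 CPM in fl/+ and 571, 592 and 616 CPM in +/+. Ifi27l2a, the most abundant of the 41, had a difference of 0.20 (SE 0.12, adjusted p = 0.218) and did not pass. It was higher in 7 of 9 pairs and was called higher with the pair as a block, at 0.19 (SE 0.06). Xaf1 (-0.27, SE 0.11, adjusted p = 0.0584) was lower in all 9 pairs and was called lower with the pair as a block, at -0.28 (SE 0.07). Lgals3bp (0.07, SE 0.08, adjusted p = 0.566) and Ifi44 (0.05, SE 0.34, adjusted p = 0.93) did not pass.

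These calls over the mean of genotypes were of unequal firmness. Expected counts were not whole in all 18 libraries for Irf9, Eif2ak2, Ifit1, Trim30a and Xaf1, and in 17 for Ifit3, Oas3, Ube2l6, Parp9, Dtx3l and Sp100. RSEM divides reads that fit several genes, so the levels of these genes are uncertain, and what they share reads with was not tested. Ddx58, Oas2, Oasl1, Ifit1, Ifit2, Usp18, Ifitm3, Rtp4, Ifi35 and Sp100 were called under every alternative run. With limma on log2 FPKM the count was 10 lower and 1 higher, and the calls of that fit over all genes are not given here. Stat2 was lost without any of 13 of the 18 libraries left out in turn and Irf7 without any of 12. Bst2 was lost without any of fl/fl effector 3, fl/fl resting 1 or 2, fl/+ effector 1, fl/+ resting 2, +/+ effector 2 or +/+ resting 1, Adar without fl/+ resting 2, and Lgals9 without +/+ effector 1.

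Within single genotypes fewer genes passed, and all of those were lower in effector cells. In fl/fl, 2 genes were called lower, against 1.33% of all tested genes: Ifit2 at -0.53 (SE 0.14, adjusted p = 0.022) and Sp100 at -0.41 (SE 0.09, adjusted p = 0.0113). In fl/+ there were 10, against 6.58% of all genes: Ddx58, Oas2, Oasl1, Ifit1, Ifit2, Usp18, Trim25, Rtp4, Ifi35 and Sp100. In +/+ there were 5, against 6.5%: Ddx58, Oas2, Ifit2, Ifi35 and Sp100. The median log2 difference of the 41 genes was -0.21 in fl/fl, -0.42 in fl/+ and -0.25 in +/+, beside -0.01 for all tested genes in each. In the fit with genotype and batch number as a block the counts were 11 lower in fl/fl, 20 lower and 1 higher in fl/+, and 12 lower and 1 higher in +/+, with Oas1a the higher one. The background was then 3.49% of all genes lower in fl/fl, 9.33% lower and 12% higher in fl/+, and 8.77% lower and 11.7% higher in +/+.

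The differences between states were of like sign in the 3 genotypes for the genes named. Oas2 differed by -1.23 (SE 0.47) in fl/fl, by -2.27 (SE 0.52) in fl/+ and by -1.88 (SE 0.54) in +/+. Sp100 differed by -0.41 (SE 0.09) in fl/fl, -0.64 (SE 0.09) in fl/+ and -0.45 (SE 0.09) in +/+. Oas1a differed by 0.45 (SE 0.33) in fl/fl, 0.55 (SE 0.33) in fl/+ and 0.71 (SE 0.33) in +/+. A test of the state difference itself between genotypes called 0 of the 41 genes in each of the 3 pairings with edgeR. Of all genes, 0% were called for fl/fl less +/+, 0.0188% for fl/+ less +/+ and 0.00941% for fl/fl less fl/+. At an unadjusted p under 0.05 there were 0 of the 41 genes in each pairing. Of all 10630 tested genes there were 953, 343 and 626 in the same order. DESeq2 also called 0 of the 41 genes in each pairing. The smaller number of calls in fl/fl is therefore not shown to be a difference between genotypes. Beside it stand the wider spread of these genes in fl/fl and the marker sums of fl/fl effector replicates 2 and 3. Among effector libraries these sums were low for effector markers and high for resting markers. The part of spread and marker sums was not tested.

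**Figure D4:**
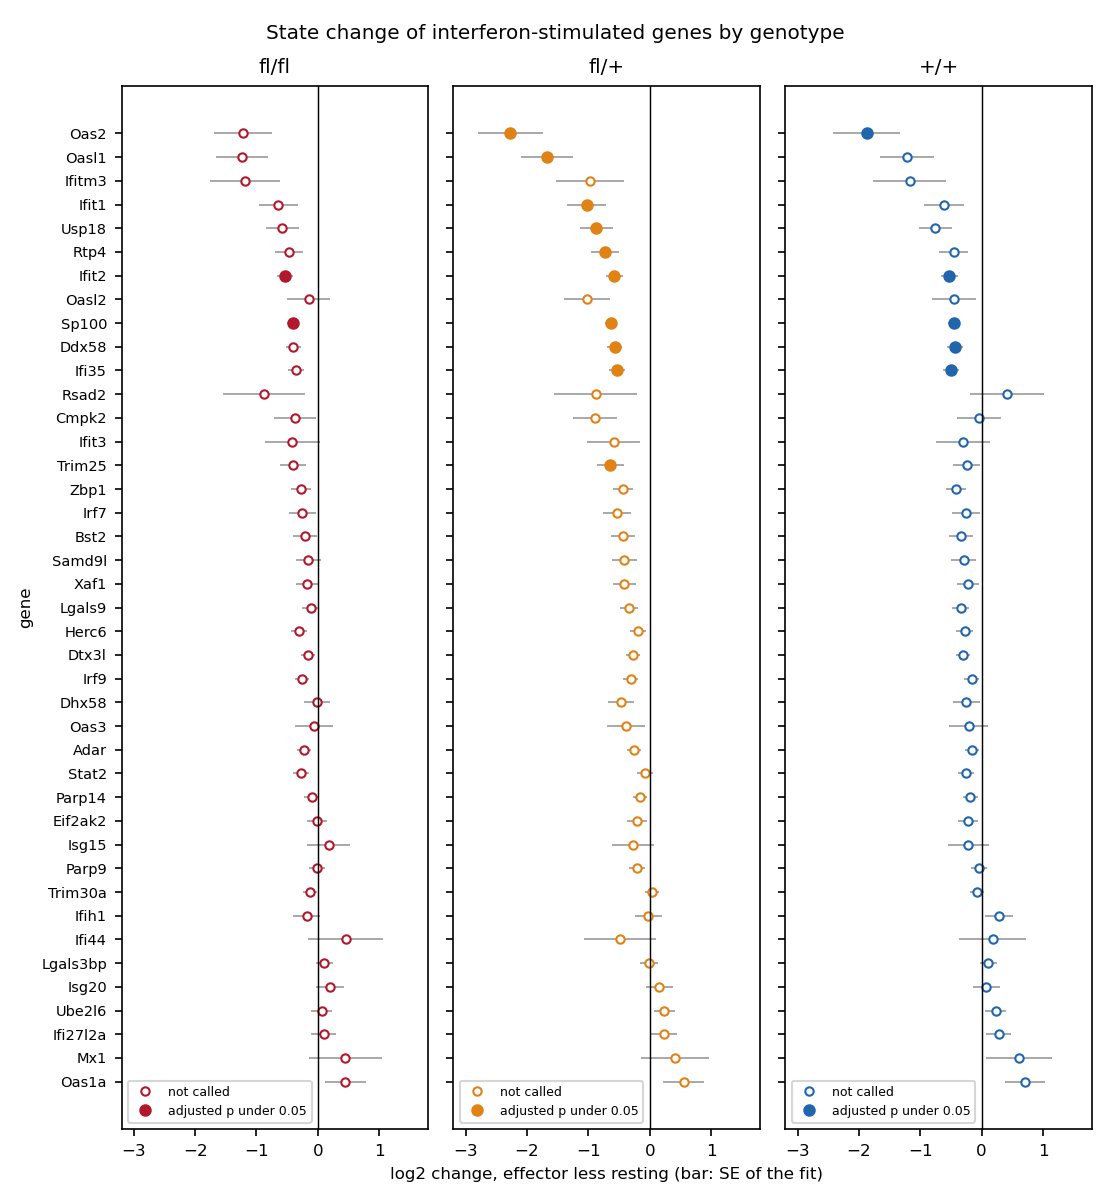
Log2 difference of the 41 genes, effector less resting, in fl/fl, fl/+ and +/+, with the SE of the fit as bars. Filled points passed an adjusted p of 0.05: 2 in fl/fl, 10 in fl/+ and 5 in +/+, all below 0, and most points lie left of 0 in every genotype.

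In the plot of state differences by genotype, 33 of 41 estimates lay below 0 in fl/fl, 35 in fl/+ and 32 in +/+. Leaving out a library in turn gave 0 to 4 calls in fl/fl, with 0 without fl/fl resting replicate 2, 4 without fl/fl resting replicate 3 and 1 without any other fl/fl library. Over all tested genes there were 337 calls without fl/fl resting replicate 2, 295 without fl/fl resting replicate 3 and 276 to 798 without each of the others, against 674 with all libraries. For the 41 genes it gave 5 to 12 calls in fl/+, with 5 without effector replicate 1, 6 without effector replicate 3 and 6 without resting replicate 3, where all tested genes gave 1354, 1091 and 1489 calls, against 1732 with all libraries. It gave 2 to 7 in +/+, with 2 without effector replicate 2 and 3 without each of effector replicate 1 and resting replicates 2 and 3, where all tested genes gave 1228, 1213, 1362 and 1408 calls, against 1700 with all libraries. Without both fl/fl libraries numbered 3, an alternative chosen after seeing the data, there was 1 call in fl/fl, with 174 over all tested genes. Without both fl/+ libraries numbered 1 there were 4 in fl/+, with 799 over all tested genes.

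Between genotypes, edgeR called none of the 41 interferon-stimulated genes in either state. The 6 comparisons gave 0 genes each at an adjusted p under 0.05, and DESeq2 and limma on log2 FPKM also gave 0 each. In effector cells the background was 2.81% of all genes for fl/fl against +/+, 0.677% for fl/fl against fl/+ and 0.00941% for fl/+ against +/+. In resting cells it was 0.696%, 0.0282% and 0.0847% in the same order. At an unadjusted p under 0.05 there were 3, 5 and 2 genes in effector cells and 0, 1 and 1 in resting cells. Of all 10630 tested genes, 1834, 1250 and 581 were below that threshold in effector cells and 873, 513 and 669 in resting cells. The median log2 difference of the 41 genes was 0.00, 0.21 and -0.25 in effector cells and -0.04, 0.09 and -0.14 in resting cells, where all tested genes lay between -0.01 and 0.01.

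The genes with the lowest unadjusted p in effector cells show how the spread sat against the difference. Oasl2, of the OAS family, had 26.4, 21.5 and 16.9 CPM in fl/fl, 6.95, 15 and 6.77 CPM in fl/+ and 19.9, 22.7 and 14 CPM in +/+. The fl/fl and fl/+ libraries did not overlap, and the log2 difference was 1.24 (SE 0.37, adjusted p = 0.129). For Rsad2 the values were 7.9, 3.02 and 0.605 CPM in fl/fl, 1.82, 6.21 and 2.66 CPM in fl/+ and 18, 13.2 and 5.17 CPM in +/+, which overlapped. Its log2 difference was -1.43 (SE 0.66, adjusted p = 0.248) for fl/fl against +/+. Oas2 in fl/fl against fl/+ effector cells gave 1.54 (SE 0.54, adjusted p = 0.211), with the values of the 2 groups overlapping as listed above. Ddx58 and Sp100 were higher in all fl/fl than in all fl/+ effector libraries without passing, at 0.36 (SE 0.13, adjusted p = 0.215) and 0.27 (SE 0.09, adjusted p = 0.206). These comparisons share libraries with each other. The share of all tested genes without overlap between groups of 3 was not counted, so the lack of overlap is a description only. In resting cells Trim30a had 141, 156 and 114 CPM in fl/fl, 105, 116 and 110.3 CPM in fl/+ and 145, 137 and 121 CPM in +/+, and gave 0.31 (SE 0.11, adjusted p = 0.91) for fl/fl against fl/+. Without fl/fl effector replicate 1, Oas1a and Mx1 were called lower in fl/fl than in +/+ effector cells, and without fl/+ effector replicate 2, Oas2 and Oasl2 were called higher in fl/fl than in fl/+. Over all tested genes these fits called 664, against 299 with all libraries, and 173, against 72. With no filter on low counts, Oas2 was called higher and Rsad2 lower in fl/fl than in +/+, Oas2, Oas3, Oasl2, Ifit1 and Rtp4 higher in fl/fl than in fl/+, and Oasl2 and Rsad2 lower in fl/+ than in +/+, all in effector cells. All-gene calls in these comparisons were then 830, 488 and 176.

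**Figure D5:**
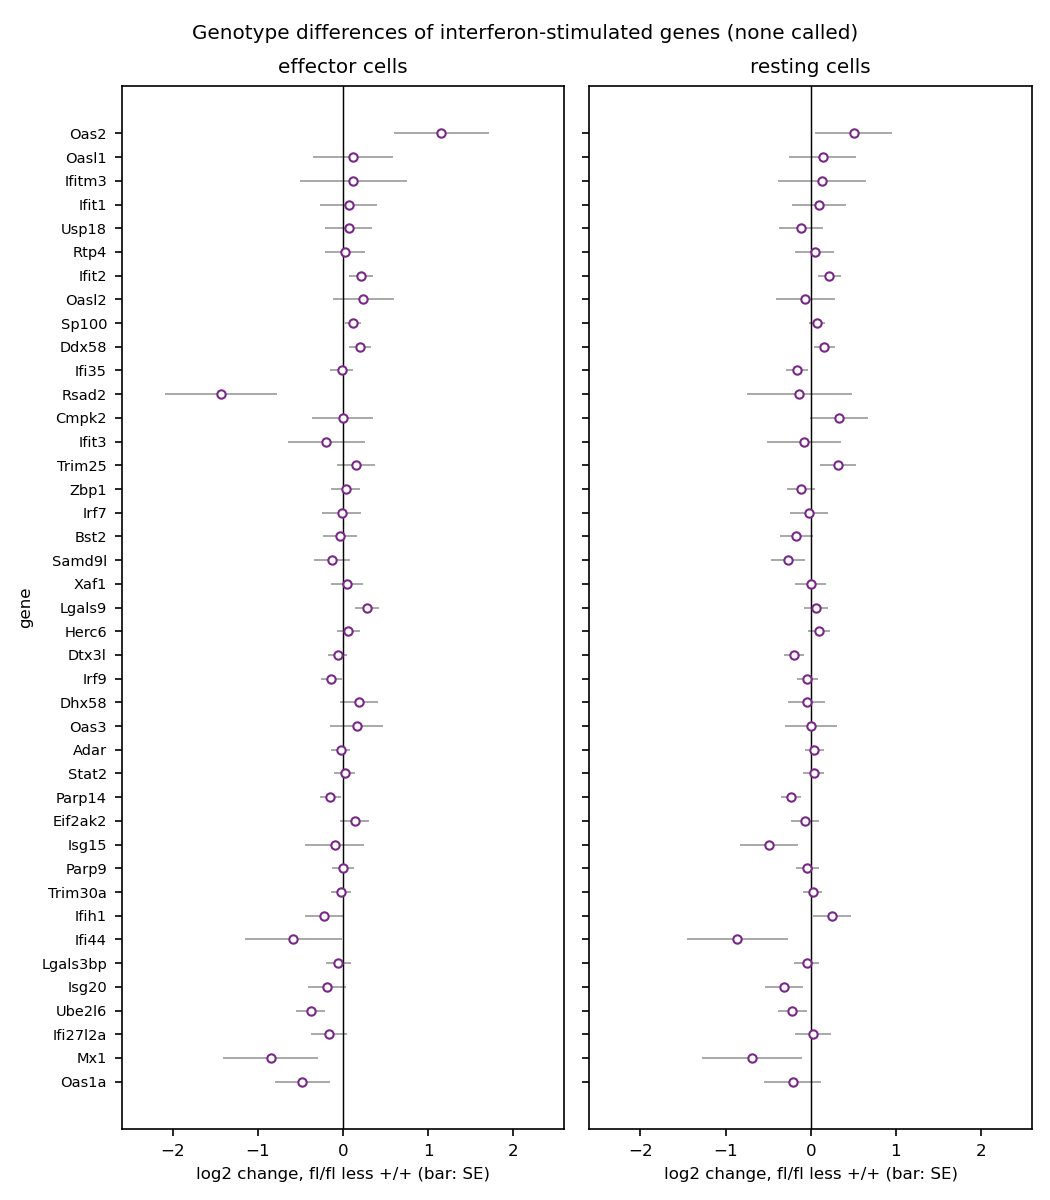
Log2 difference of the 41 genes, fl/fl less +/+, in effector and in resting cells, with the SE of the fit as bars. No gene passed an adjusted p of 0.05, and the points scatter around 0, with medians of 0.00 in effector and -0.04 in resting cells.

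The plot of genotype differences shows that the largest estimates came with wide error bars. In effector cells they ran from -1.43 for Rsad2 to 1.15 for Oas2. Their SEs were 0.66 for Rsad2 and 0.56 for Oas2, and these are the genes that were called with no filter on low counts.

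The rest of the pathway was read from a list of 37 genes for receptors, kinases, STATs, IRFs, feedback regulators, nucleic acid sensing and the interferons themselves. All 37 are in the table and 28 were tested. Over the mean of genotypes 6 were higher and 9 lower in effector cells, 13 did not pass, and the median log2 difference was -0.09. Over all tested genes 17.5% were higher and 15.4% lower. The receptor chains split: Ifnar1 fell, at -0.48 (SE 0.06, adjusted p = 6.62e-06), and Ifnar2 rose, at 0.21 (SE 0.06, adjusted p = 0.013). The interferon-gamma receptor chain Ifngr2 had 64.6, 85.2 and 47.8 CPM in fl/fl effector libraries, 51.3, 59.8 and 41.6 CPM in fl/+ and 37.4, 41.8 and 45.8 CPM in +/+. In resting libraries it had 97.2, 114 and 86.2 CPM in fl/fl, 106, 89.7 and 89.7 CPM in fl/+ and 85.2, 103 and 94 CPM in +/+. It fell in effector cells, at -0.89 (SE 0.10, adjusted p = 9.51e-07). Ifngr2 was also the 1 pathway gene of 28 called between genotypes, higher in fl/fl than in +/+ effector cells at 0.69 (SE 0.18, adjusted p = 0.0449). In that comparison 2.81% of all tested genes were called.

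Among the kinases, Jak1 fell (-0.40, SE 0.05, adjusted p = 1.57e-06) and Jak2 rose (0.41, SE 0.10, adjusted p = 0.00331). Of the IRFs, Irf5 rose (1.75, SE 0.23, adjusted p = 4.10e-06) and Irf8 rose (0.81, SE 0.19, adjusted p = 0.00188), while Irf1 (-0.25, SE 0.06, adjusted p = 0.00395) and Irf2 (-0.21, SE 0.08, adjusted p = 0.0455) fell. The phosphatases Ptpn6 and Ptpn2, which dephosphorylate parts of the pathway, fell by 0.31 and 0.27 on the log2 scale. The endosomal RNA receptor Tlr7 fell (-0.64, SE 0.13, adjusted p = 0.000526), the kinase Ikbke fell (-0.37, SE 0.06, adjusted p = 8.41e-05) and the adaptor Ticam1 rose (0.31, SE 0.10, adjusted p = 0.0252).

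No type I interferon gene on the list had more than 2 counts in any library, and Ifnb1 was the highest of them. Ifng, the type II interferon, had 4.43, 0.671 and 1.21 CPM in fl/fl effector libraries, 3.31, 2.59 and 0.968 CPM in fl/+ and 5.49, 5.81 and 3.33 CPM in +/+. Among resting libraries, all 3 of fl/fl, 2 of fl/+ and 1 of +/+ were at 0, and the highest had 1.58 CPM. Ifng was called higher in effector cells (adjusted p = 6.71e-05), at counts of 26 or fewer.

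Genes of other cell types were present at low levels in all groups. B cell markers (8 genes) summed to 12.75 to 52.25 CPM in effector libraries and 10.4 to 93.96 CPM in resting ones, with the highest sum in +/+ resting replicate 3. Dendritic and myeloid markers summed to 96.12 to 202.7 CPM in effector and 76.25 to 262.9 CPM in resting libraries, again highest in +/+ resting replicate 3, and most of that came from Cst3, Cd74 and the class II genes. The plasmacytoid dendritic cell list, the cell type best known for making type I interferon, had Klk1 and Cox6a2 at 0 in every library and Siglech at 3 counts or fewer. The whole list summed to 95.95 to 183.4 CPM in effector and 92.37 to 127.3 CPM in resting libraries, mostly from Pacsin1 and Ccr9. CD8 and NK markers summed to 50.23 to 110.6 CPM in effector and 43.69 to 60.54 CPM in resting libraries. Replicates numbered 3 had the highest B cell and myeloid sums of their group in both states of fl/+ and +/+, at 52.25 and 202.7 CPM in fl/+ effector, 61.04 and 194.4 CPM in fl/+ resting, 29.94 and 164.1 CPM in +/+ effector and 93.96 and 262.9 CPM in +/+ resting cells. The median deviation of the 41 genes from the group mean was 0.00 in both of these fl/+ libraries, -0.01 in +/+ effector and -0.02 in +/+ resting replicate 3. Fl/fl replicate 3 had B cell and myeloid sums of 13.9 and 96.12 CPM in effector and 21.84 and 158.5 CPM in resting cells. Its myeloid sum was the lowest of its group in effector and the highest in resting cells. Its median deviations were -0.28 in effector and -0.42 in resting cells. Fl/fl effector replicate 1 had a myeloid sum of 200 CPM, beside 104 and 96.12 CPM in replicates 2 and 3. Its CD8 and NK sum was 110.6 CPM, beside 55.02 and 51.99 CPM, and its median deviation was 0.22. The part of other cell types in the results was not tested.

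The genes outside the list whose pattern was most like the mean of the 41 over the 18 libraries were Helz2, Mx2, Gbp11, Ddx60 and Gm14446, with Pearson r of 0.864, 0.843, 0.833, 0.822 and 0.808. These r values describe likeness in libraries that share pairs and depth. Their log2 differences, effector less resting, were -0.17, -0.62, -1.08, -0.43 and -0.96. Mx2 is a paralog of Mx1 and Ddx60 a helicase, and Gbp11 belongs to the guanylate-binding proteins. They were chosen by a pattern that contains the state difference, so these differences are a description only.

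Promoter motifs were set beside the calls as a description. Of the matched genes, 6 of 16 called lower held the motif, the 1 called higher (Oas1a) held it, and 7 of 15 not called held it. A match describes the letters in this window and is no evidence of binding.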

How the data were processed

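RNA-seq of sorted Tregs in 18 libraries was used, with groups and batch numbers from the labels. The tools RSEM 1.2.8, STAR 2.6.0, bcl2fastq 2.17.1.14 and build mm10 are named, per the submitters' processing notes. They give neither annotation, strand setting nor filters. The authors deposited expected counts per gene symbol, of which 29.4% of the nonzero values were not whole, and all were rounded. The authors also deposited FPKM, used for levels per length and in alternatives. Replicates were compared pairwise by chi-square per tested gene (3.38 to 6.9), and none were duplicates. Expected counts were scaled by TMM (factors 0.9394 to 1.063) and filtered by filterByExpr, leaving 10630 of 23420 genes, and a model of 6 group means was fitted in R 4.3.3 with edgeR 4.0.16 quasi-likelihood tests. A call needed a p below 0.05 after Benjamini-Hochberg adjustment over all 10630. The scripts were tested on simulated data. Fold changes are log2 with the SE of the fit, and limma 3.58.1 and DESeq2 1.42.0 served as alternatives.

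Effector and resting libraries of a genotype were paired by batch number. The labels call the number a batch and do not say that a pair shares an animal. Deviations from the group means correlated at 0.141 to 0.345 in all 9 pairs. Such correlations are not given between genotypes, so a shared animal and a shared batch cannot be told apart. CPM values use TMM-scaled totals, and library totals ran from 1658073 to 5756903, so genes of a few CPM rest on few counts. Values per library are given for genes called in any comparison and for the 5 with the highest mean FPKM, and for the other genes mostly as ranges. Outside the list, only pathway and marker genes and the 5 genes most like the list were named; other single genes given per library were chosen after their values were seen. Positions are from GENCODE M21 on GRCm38. The members, gene lists and tests were chosen with earlier results of these data known. The targeted gene is not reported here.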

Additional observations from a re-analysis of the deposited data

How the results depend on the processing

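The counts of called interferon-stimulated genes moved with the processing, and none of the 38 gene results called in the main fit changed direction. The direction of results not called in the main fit was not followed. Of the values of 38 gene results under up to 30 settings, 971 kept direction and call, 148 kept the direction but lost the call and 0 reversed. Without a filter on low counts there were 8 calls in fl/fl, 18 in fl/+ and 12 in +/+ between states, and 2 for fl/fl against +/+, 5 for fl/fl against fl/+ and 2 for fl/+ against +/+ in effector cells, plus 1 for the state difference in fl/fl less that in fl/+. Calls over all genes also rose, to 1012, 1938 and 1972 between states, to 830, 488 and 176 between genotypes and to 133 for that difference, against 674, 1732, 1700, 299, 72, 1 and 1 with the filter. Limma on log2(FPKM + 1) and on log2(FPKM + 0.1) each gave 0, 5 and 3 calls in fl/fl, fl/+ and +/+ and 11 over the mean of genotypes. The replicate block of genotype and batch number gave 11, 21 and 13, with 1071, 2265 and 2176 calls over all tested genes. A block of batch number alone gave 9 in +/+. The blocks moved no other count by over 1.5 times. Fits of only the 6 libraries compared gave 1 in fl/fl and 9 in +/+. Leaving out 1 library at a time gave 0 to 4 calls in fl/fl, 5 to 12 in fl/+, 2 to 7 in +/+, 17 to 25 over the mean of genotypes, 0 to 2 for fl/fl against +/+ and 0 to 2 for fl/fl against fl/+ in effector cells, and 0 in the other comparisons. Alternatives chosen after seeing the data left out both fl/fl libraries numbered 3 (1 in fl/fl, 8 in +/+), both fl/+ libraries numbered 1 (4 in fl/+), or all 4 of these (1 in fl/fl, 9 in +/+). Calls over all genes are not given here for the limma fits, the block of batch number alone and the fits of only 6 libraries. The same holds for leaving out a library over the mean of genotypes and for the highest such counts in fl/+ and +/+. It also holds for the fit without all 4 libraries and for the count of 8 in +/+. Those counts therefore have no background beside them. The causes were not tested. Scaling by RLE factors moved the median log2 change of all genes by 0.0197 and FPKM by 0.0873. Counting precision is lowest for Rsad2, Ifitm3 and Ifi44.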
